A study of Homo sapiens with 6 samples.

Results

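The transcripts described here encode the surface proteins, enzymes and transporters by which breast stem and progenitor cells are commonly sorted or scored: CD44, CD24, ALDH1A1, ALDH1A3, PROM1 (CD133), EPCAM, PROCR, THY1 (CD90), ABCG2 and LGR5. Members were all gene probes of the array whose gene name in the files was one of these 10 symbols, which gave 11 probes, 2 of them for ALDH1A1, of 34127 gene probes in all. Each member probe had 1 spot per array, and none of these spots carried an outlier flag. RNA was measured in 2 isogenic human breast cancer lines that both descend from T47Dco, an estrogen receptor-positive luminal line, by way of xenografts in ovariectomized immunodeficient NSG mice. Pure luminal cells (pLUM, 3 arrays) came from a tumor grown with estradiol (E) and were sorted as CLD3+ CD49f-. Pure luminobasal cells (pLB, 3 arrays) came from a tumor grown with E plus progesterone and were sorted as CLD3- CD49f+. The pLUM cells had received 1 nM E for 72 h, whereas the pLB cells were under estrogen withdrawal (EWD). All cells were then stained for cytokeratin 5 (CK5) and sorted again, and which CK5 fraction went onto the arrays is not given in the sources used here. Each line is a single sorted derivative, and line, tumor of origin and hormone coincide on all 6 arrays, so that their parts in a difference cannot be told apart. The 3 arrays of a line are separate sorts, which the sources used here do not tie to separate cultures, so p-values measure the spread between these sorts.

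No single transcript defines a breast stem cell. In human tumors, a surface phenotype of high CD44 with low CD24 was used to enrich cells that seed xenografts, and high aldehyde dehydrogenase activity was used for the same purpose in a different, partly overlapping set of cells. CD44 is the main receptor for hyaluronan, and CD24 is a small, heavily glycosylated protein anchored in the membrane by a lipid. ALDH1A1 and ALDH1A3 oxidize retinaldehyde to retinoic acid. In the normal gland, EPCAM with CD49f separates luminal, luminal progenitor and basal cells, PROCR and THY1 are found in basal cells, and LGR5 marks stem cells of several epithelia.

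The members were read by probes of 60 bases, and the first 30 bases are shown for 10 of them, 1 for each gene, because a probe sees only the part of a transcript that it matches. Positions are those of the files, in hg19. An annotation of that build was not used here, so that exon and UTR are not given.
CD44, probe A_33_P3294509, chr11:35253812-35253871, plus strand: gcacacccttcctctggtttttgtatattt
CD24, probe A_33_P3369844, chrY:21152667-21152726, minus strand: ctacatgggaacaaacagatcgaacagttt
ALDH1A1, probe A_23_P83098, chr9:75516136-75516195, minus strand: ggagagtacggtttccatgaatatacagag
ALDH1A3, probe A_23_P205959, chr15:101456503-101456562, plus strand: atatagacactaaccttgatagtgatacgt
PROM1, probe A_33_P3389842, chr4:15982046-15982105, minus strand: tttttgcggtaaaactggctaagtactatc
EPCAM, probe A_23_P91081, chr2:47613894-47613953, plus strand: tcaaaatataagcagcttgaaactggcttt
PROCR, probe A_23_P80040, chr20:33764988-33765047, plus strand: acaatcaaaatacaacattcaatacttcca
THY1, probe A_33_P3280845, chr11:119288887-119288946, minus strand: ttatggcatctcattgaggacaaagaaaac
ABCG2, probe A_33_P3361067, chr4:89011503-89011562, minus strand: gtcccttacagttctctatatatacccttc
LGR5, probe A_23_P98974, chr12:71978325-71978384, plus strand: acacccaagcttgatgtcaattaactctga

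Several of these probes limit what can be read from them. CD44 was read by a single probe, so the standard and the variant isoforms of CD44 were not separated. For CD24, the files place the probe on chromosome Y, whereas RefSeq lists the gene on chromosome 6 in GRCh38.p14. CD24 has near-identical copies, and which copy gave the signal is uncertain. PROM1 was read by a single probe, listed for only some of its transcript variants.

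On the array, the brightness of each spot was expressed as log2 relative to the 75th percentile of all gene spots on its array, so that a value of 0 equals that percentile. Values of different probes cannot be compared with each other, and comparisons below are between lines for the same probe. A probe was tested with limma if it was well above background, as flagged by the scanner software, on at least 3 of 6 arrays. It was called higher or lower at a difference of at least 2-fold with a Benjamini-Hochberg adjusted p under 0.05 over all 23105 tested probes. Slide 1 held all pLUM arrays together with pLB replicate 1, and slide 2 held pLB replicates 2 and 3. A fit with slide as a block therefore sets pLB replicate 1 alone against pLUM, and its value is given for each tested member. The lines matched their labels in the markers that define them. KRT5, which encodes CK5, was well above background on no pLUM array and at least 1761-fold higher in pLB, PGR was well above background on no pLB array and at least 67.5-fold lower, and GATA3, a luminal transcription factor, was 41.2-fold lower. ITGA6 (CD49f, 21.4-fold higher) and CLDN3 (CLD3, 104-fold lower) differed as the sort required and are no finding. These RNAs came from bulk populations, in which a change in the share of cells that express a gene and a change in RNA per cell cannot be told apart.

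Of the 11 member probes, 7 were tested, each for a different gene. In pLB, PROCR, THY1, ALDH1A1, ALDH1A3 and EPCAM were called higher, CD24 was called lower, and CD44 was higher by less than 2-fold. Calls were frequent over the whole array, where 21.9% of tested probes were higher and 23.7% lower in pLB. All 7 tested members had values that did not overlap between the lines, as did 68.1% of all tested probes. The median difference of the 7 tested members was 1.95 on the log2 scale, or 1.1 with THY1 and ALDH1A1, which passed the filter through the pLB arrays alone, at their lower bounds. It was -0.0079 for all tested probes. The remaining 4 probes, the second one of ALDH1A1 and those of PROM1, ABCG2 and LGR5, were too dim to be tested.

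**Figure D1:**
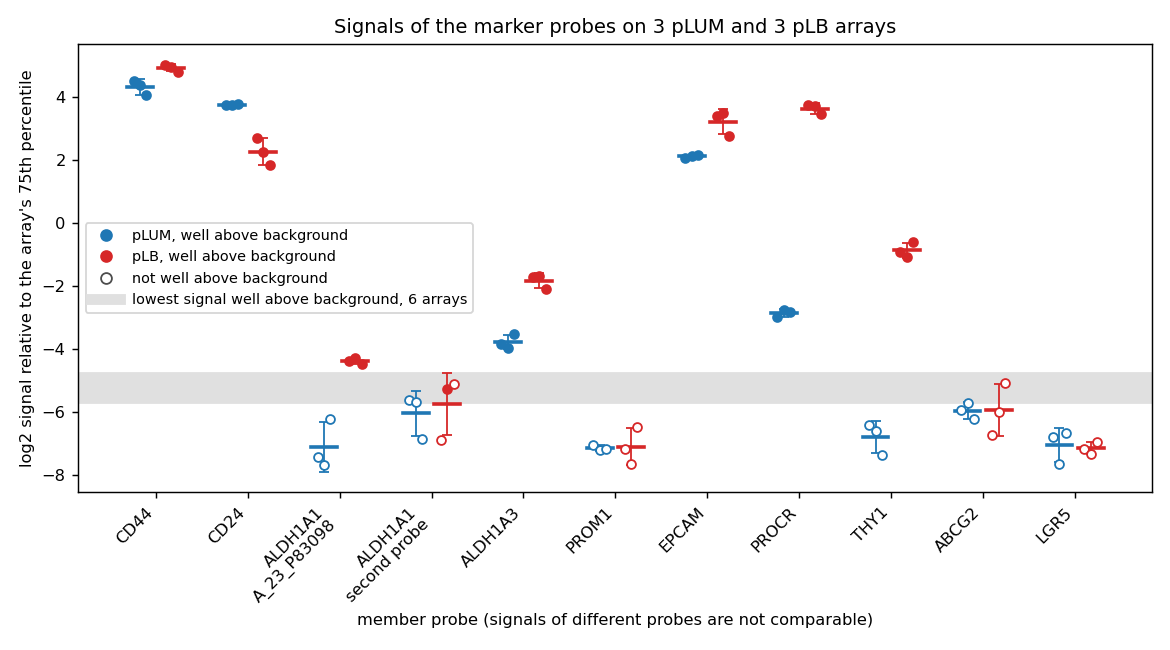
Log2 signal of each member probe relative to the array's 75th percentile (y axis) on 3 pLUM (blue) and 3 pLB (red) arrays. Filled points are well above background and open points are not, horizontal bars with whiskers are the mean ± SD of 3 arrays, and the grey band spans the lowest signals well above background of the 6 arrays. PROCR and THY1 have the widest gaps between lines, CD24 is the only tested member that is lower in pLB, and PROM1, ABCG2 and LGR5 have open points only.

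CD44 was bright in both lines. Its log2 signal in the order of the replicates was 4.53, 4.41 and 4.06 in pLUM and 5.03, 4.98 and 4.82 in pLB, and values of 3 arrays are given in that order throughout. Every pLB value was above every pLUM value, and pLUM replicate 3 was the lowest of the 6. The fitted difference was 0.61 (standard error 0.18), or 1.53-fold, with an adjusted p of 0.022 from limma, and it stayed under the 2-fold threshold. With slide as a block it was 0.70, with an adjusted p of 0.069. When each array was left out in turn it was 0.48 to 0.71, with adjusted p of 0.019 to 0.072.

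CD24 moved the other way. The pLUM arrays gave 3.76, 3.76 and 3.79, and the pLB arrays 2.72, 2.25 and 1.86. The pLUM arrays were nearly equal, whereas the pLB arrays spread over 0.43 (SD, n = 3) and the pLB array of slide 1 was closest to pLUM. CD24 fell by 1.50 on the log2 scale (standard error 0.23), a 2.82-fold decrease in pLB with an adjusted p of 0.0011 from limma. The slide block gave -1.05, still past both thresholds with an adjusted p of 0.013.

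Taking CD24 from CD44 within each array removes the scaling of the array. The level of that difference depends on how brightly each probe reads its transcript, and only its shift between lines is of use. The log2 difference was 0.77, 0.65 and 0.27 in pLUM, and 2.31, 2.73 and 2.96 in pLB. The lines did not overlap. The mean moved from 0.56 ± 0.26 in pLUM to 2.67 ± 0.33 in pLB (SD, n = 3 for each), a shift of 2.11, or 4.30-fold in the ratio of CD44 to CD24. An exact two-sided permutation test gave p = 0.1, which is the smallest value that 3 arrays against 3 can give. Each gene alone was already without overlap, in opposite directions. The separation of the difference and its p-value were thus fixed beforehand and add no evidence to the single genes. Within slide 1 the shift was 1.75. Most of this RNA shift came from CD24, whose fitted difference was larger in size than that of CD44. Surface protein was not measured on the arrays. In the authors' immunohistochemistry CD44 was positive in pLB and negative in pLUM. The authors also listed CD44 mRNA as higher in pLB, by less than 2-fold.

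**Figure D2:**
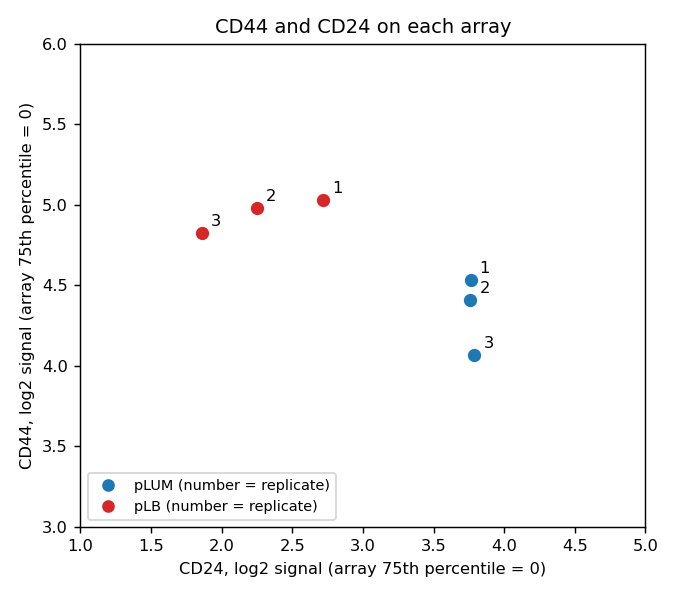
CD44 log2 signal (y axis) against CD24 log2 signal (x axis) on each array, both relative to the array's 75th percentile, with the replicate number beside each point. The pLB arrays (red) lie to the left, at 1.86 to 2.72 for CD24 against 3.76 to 3.79 on the pLUM arrays (blue), and higher for CD44 by a smaller distance.

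The proteins that make, cut, bind or anchor around CD44 did not move in a single direction. Of 14 such genes, 12 were tested, of which 5 were called higher and 3 lower in pLB, where 22.6% and 23.1% of all 17785 tested genes were called. The median difference of the list was 0.72 on the log2 scale, beside 0.031 over all tested genes. HAS3, which synthesizes hyaluronan, rose from -3.65 ± 0.15 to 3.41 ± 0.10 (SD, n = 3), a 134-fold difference with an adjusted p of 3.1e-07 from limma, although a second HAS3 probe, listed for another transcript, gave 3.49-fold. SPP1 (osteopontin), a secreted ligand of CD44, was well above background on no pLUM array and was at least 11.1-fold higher. HYAL2, which cleaves hyaluronan, was 3.99-fold higher. In the other direction, VCAN (versican), a proteoglycan that binds hyaluronan, was well above background on all pLUM arrays and on 1 of 3 pLB arrays, with a fitted difference of -4.78 that sets no exact fold. HYAL1, well above background on 2 of 3 pLB arrays, fell by 1.55 on the log2 scale. ESRP2, an epithelial splicing factor that promotes inclusion of the variable exons of CD44, was 2.97-fold lower with an adjusted p of 0.00012 from limma. Its close relative ESRP1 measured 1.03 ± 0.26 in pLUM and 1.47 ± 0.21 in pLB (SD, n = 3 for each) and was not called, with an adjusted p of 0.099. HAS2 and MSN were not tested.

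Both retinaldehyde dehydrogenases among the members were higher in pLB. ALDH1A3 was measured on all arrays, at -3.84, -3.96 and -3.52 in pLUM and at -1.71, -1.68 and -2.10 in pLB. The lines were separated by a gap wider than the spread within either of them. It rose by 1.95 (standard error 0.20), or 3.86-fold, with an adjusted p of 0.00014 from limma, and by 2.07 with slide as a block. Normexp background correction here started again from the mean spot signal and added 50 to each corrected intensity, which sets dim signals closer together. With it the difference was 0.81 and no longer reached 2-fold.

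ALDH1A1 lay close to the detection limit. Probe A_23_P83098 read -7.44, -7.69 and -6.22 in pLUM, none of them well above background, and -4.39, -4.27 and -4.47 in pLB, all well above background. As pLUM gave no measured level, the difference is a lower bound, for which each pLUM value was replaced, where it was lower, by the dimmest signal still well above background on that array. ALDH1A1 was thus at least 2.01-fold higher in pLB, with a fitted difference of 2.74 (standard error 0.37) and an adjusted p of 0.00052 from limma. The slide block gave 2.73. As the probe passed the filter through the pLB arrays alone and the fit used unmeasured pLUM values, the p-value adds no support. Under normexp background correction the fitted difference was -0.067 with an adjusted p of 0.9, so that neither the call nor its direction held under that setting. The deposited intensity of this probe was at most 41.4 on any array. The offset of 50 was not added to that intensity but to the newly corrected signal. Other offsets were not tested. The second ALDH1A1 probe, which lies in another part of the gene, was well above background only on pLB replicate 2, at -5.26. Its values ran from -6.87 to -5.62 in pLUM and from -6.90 to -5.11 in pLB and overlapped, with pLB replicate 1 the lowest of the 6 arrays and pLB replicates 2 and 3 above every pLUM value.

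Among the other aldehyde dehydrogenases, which act on a wide range of aldehydes and also contribute to dye-based activity assays to differing degrees, 14 of 17 genes were tested. There were 4 called higher and 3 called lower in pLB, where 22.6% and 23.1% of all tested genes were called. The median difference was 0.30, beside 0.031 over all tested genes. With normexp background correction 1 was called higher and 3 lower. Those higher with the largest changes were ALDH7A1 (6.40-fold), the mitochondrial ALDH1B1 (2.80-fold) and ALDH3A1 (2.38-fold). The probes of ALDH7A1 disagreed, since a second probe for the same transcript was lower by 2.66-fold (adjusted p = 0.0019 in limma) and the remaining one differed by 1.08-fold. Those lower with the largest changes were ALDH3B2 (a fitted 12.5-fold, with 2 of 3 pLB arrays well above background), the mitochondrial acetaldehyde enzyme ALDH2 (6.35-fold) and ALDH5A1 (3.41-fold), which oxidizes succinic semialdehyde. ALDH2 fell from 2.15 ± 0.22 to -0.52 ± 0.39 (SD, n = 3), with an adjusted p of 7.3e-05 from limma.

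EPCAM, an epithelial adhesion protein, was present in both lines and moderately higher in pLB. It measured 2.08, 2.13 and 2.17 in pLUM and 3.41, 3.51 and 2.76 in pLB. The pLUM arrays were close together, and pLB replicate 3 lay nearest to them without overlap. The increase was 1.1 (standard error 0.23), or 2.15-fold, with an adjusted p of 0.0042 from limma, and 1.28 with slide as a block. It passed the 2-fold threshold narrowly. Quantile normalization gave 0.95 and leaving out pLB replicate 2 gave 0.96, both under 2-fold.

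PROM1, a protein of membrane protrusions known as CD133, was well above background on no array. Its probe read -7.22 to -7.06 in pLUM and -7.65 to -6.49 in pLB, below the lowest signals well above background, which were -5.70 to -4.75 on the 6 arrays. PROM1 transcripts of the variants that this probe reads were therefore not detectable in either line, which does not show that they were absent.

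Of 8 genes related to EPCAM or PROM1 or known to process or bind them, all were tested, and 5 were called higher and 2 lower. The shares over all tested genes were 22.6% and 23.1%. The median difference of the list was 1.17. Normexp background correction left 3 called higher. FHL2, which binds the cleaved cytoplasmic part of EPCAM, was 8.16-fold higher. Another FHL2 probe agreed in direction at 5.86-fold, whereas the last one, listed for another transcript, differed by 1.19-fold with an adjusted p of 0.61. PROM2, the relative of PROM1, was 2.90-fold higher by its brightest probe and 2.23-fold lower by another (adjusted p of 0.00036 and 0.0096 from limma), so that no direction can be given for the gene. CLDN7, a tight junction protein that forms complexes with EPCAM, was 8.67-fold lower, and TSPAN8, a tetraspanin, was well above background on no pLB array and at least 3.72-fold lower.

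PROCR showed the largest fitted change of the members. Its log2 signal was -2.99, -2.75 and -2.84 in pLUM and 3.75, 3.73 and 3.46 in pLB. All 6 values were well above background, and the spread within each line was small beside the gap. PROCR, the endothelial protein C receptor, was 91.1-fold higher in pLB (log2 difference 6.51, standard error 0.17, adjusted p = 4.2e-07 from limma). By size it ranked 175 among the 11503 tested probes with a higher mean in pLB. The difference was 6.61 with slide as a block and 6.44 to 6.60 when each array was left out in turn. Normexp background correction lowered it to 5.47.

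In the protein C and thrombin pathway to which PROCR belongs, 5 of 7 genes were tested and all 5 were called higher in pLB. Over all tested genes the share called higher was 22.6%. With normexp background correction 4 of the pathway were called higher, and 2 where detection on all 6 arrays was required. The median difference was 5.00, or 4.11 when genes not measured in pLUM were set to their lower bound. THBD (thrombomodulin), which turns thrombin into an activator of protein C, was at least 28.8-fold higher. PROS1 (protein S), the cofactor of activated protein C, was at least 8.23-fold higher. Neither could be measured in pLUM, and both passed the filter through the pLB arrays alone. F2RL1, a protease-activated receptor, rose from -3.09 ± 0.34 to 2.91 ± 0.04 (SD, n = 3), a 64.1-fold difference. PROC, which encodes protein C itself, and TFPI were not tested.

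THY1, a small surface glycoprotein of basal mammary cells, fibroblasts and some leukocytes, was detected only on the pLB arrays. It read -6.42, -6.61 and -7.39 in pLUM, none well above background, and -0.90, -1.07 and -0.60 in pLB. The lines were far apart and each pLB value lay well clear of the detection limit. THY1 was at least 23.0-fold higher in pLB, with a fitted difference of 5.95 (standard error 0.28) and an adjusted p of 3.8e-06 from limma. Slide as a block gave 5.91. This probe, too, passed the filter through the pLB arrays alone, so that its p-value adds no support. Under normexp background correction the fitted difference was 1.90, still past both thresholds.

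Because THY1, PROCR and CD44 are also made by other cell types, markers of those cells were read on the same arrays. Of 8 fibroblast markers, COL3A1, PDGFRA, PDGFRB, DCN, LUM and FAP were well above background on no array. Summed over the list, as multiples of each array's 75th percentile, the level was 0.779 to 0.976 in pLUM and 0.796 to 1.16 in pLB. The largest part of the mean sum came from COL1A1, well above background on all arrays, so the sum does not describe the list evenly. COL1A1 measured -0.27 ± 0.20 in pLUM and -0.83 ± 0.53 in pLB (SD, n = 3 for each). It was not called, with an adjusted p of 0.12 from limma. COL1A2, a collagen chain, was the only fibroblast marker called, at least 11.5-fold higher in pLB. Of 5 endothelial markers, PECAM1, KDR and TEK were well above background on no array, and the summed level was 0.0778 to 0.114 in pLUM and 0.0987 to 0.215 in pLB. VWF was called higher, with a lower bound of 1.80-fold. By their brightest probes, all 6 leukocyte markers were well above background on at least 1 array of each line. Of 5 PTPRC probes, however, only 2 were so on any array, and CD3E was so on 1 array of each line and was not tested. The summed level was 0.487 to 0.629 in pLUM and 0.463 to 0.595 in pLB. Only CD68, a lysosomal protein, was called, 2.87-fold higher in pLB. Neither VWF nor CD68 was called with normexp background correction. The part of such cells in the values of THY1, PROCR and CD44 was not tested beyond these levels.

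ABCG2, a drug efflux pump that gives rise to the dye-excluding side population, and LGR5, a receptor for R-spondins that strengthens Wnt signalling, were well above background on no array. ABCG2 read -6.24 to -5.71 in pLUM and -6.74 to -5.07 in pLB, and LGR5 read -7.67 to -6.68 in pLUM and -7.35 to -6.97 in pLB. Their ranges overlapped between lines. Fitted without the filter on dim probes, the differences were 0.020 for ABCG2, -0.11 for LGR5, 0.053 for PROM1 and 0.29 for the second ALDH1A1 probe, with standard errors of 0.30 to 0.56 and adjusted p of 0.78 to 0.97 from limma. At these intensities a difference between the lines was not detectable.

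Other parts of the R-spondin and Wnt feedback system were measurable. Of 10 genes, 8 were tested, of which 5 were called higher and none lower in pLB, beside 22.6% and 23.1% of all tested genes. The median difference was 1.46, or 0.80 with genes not measured in pLUM at their lower bound. Only 2 were called higher with normexp background correction and 3 with dim signals set to the detection limit, and the called genes AXIN2 and RSPO3 had lower bounds under 2-fold. LGR4, the relative of LGR5 with the same ligands, rose from 0.20 ± 0.03 to 2.74 ± 0.14 (SD, n = 3), a 5.83-fold difference with an adjusted p of 1.2e-05 from limma. ZNRF3, a ubiquitin ligase that removes Wnt receptors from the surface, was 3.97-fold higher. AXIN2, a common target of Wnt signalling, was well above background on the pLB arrays only, with a lower bound of 1.75-fold, and another AXIN2 probe was too dim on every array. LGR6 was measured in both lines, at -2.52 ± 0.10 and -2.20 ± 0.16 (SD, n = 3), and was not called, with an adjusted p of 0.13.

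**Figure D3:**
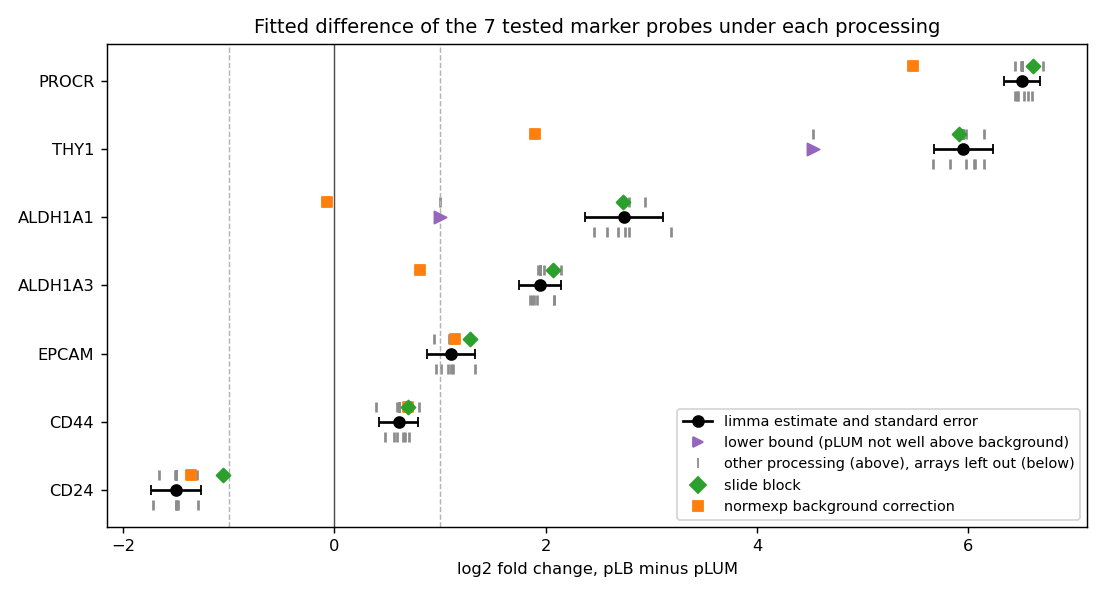
Log2 difference between pLB and pLUM (x axis) for the 7 tested member probes: limma estimate with its standard error (black), lower bound where pLUM was not well above background (purple), slide block (green), normexp background correction (orange) and the other alternatives as grey ticks, with arrays left out below each estimate. Dashed lines mark 2-fold. PROCR and THY1 stay past 2-fold throughout, EPCAM straddles it, CD44 stays under it, and ALDH1A1 falls to -0.067 with normexp.

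Among genes that describe the state of mammary cells more broadly, the basal and luminal lists went opposite ways. Of 15 genes enriched in basal and stem cell fractions, all were tested, 13 were called higher and 1 lower in pLB. Over all tested genes, 22.6% were called higher and 23.1% lower. The median difference of the list was 6.09, or 4.76 with genes not measured in pLUM at their bound. With normexp background correction 11 of the list were called higher. Where detection on all 6 arrays was required 3 were, since genes not detected on every pLUM array then dropped out. KRT14 and JAG1, a basal keratin with close paralogs and a Notch ligand, were at least 553-fold and at least 205-fold higher beside KRT5. ID4, a transcriptional inhibitor of basal cells, was 7.0-fold lower. Of 13 mature luminal genes, all tested, 11 were called lower and none higher, with a median difference of -3.31. The prolactin receptor PRLR was at least 104-fold lower and the mucin MUC1 116-fold lower. ESR1 probes gave unequal values, from 3.47-fold lower by the brightest probe to a fitted 136-fold lower by another, which was well above background on no pLB array. KRT8, a luminal keratin, was 2.40-fold lower by its brightest probe and 3.72-fold higher by a probe listed for another transcript. These lists include genes on which the lines were sorted or characterized and are not independent evidence of their identity.

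Luminal progenitor genes did not move together. Of 6 genes 4 were tested, with 1 called in each direction and a median difference of 0.046. For this list and the next, the shares over all tested genes were 22.6% higher and 23.1% lower. ELF5, an ETS factor of luminal progenitors, was well above background on no pLB array and at least 42.8-fold lower, whereas SLPI, a secreted protease inhibitor, was 15.7-fold higher. KIT and LTF were not tested. Of 9 genes tied to pluripotency and self-renewal, 8 were tested, 4 were called higher and 1 lower, with a median difference of 1.34. LIN28B, which blocks maturation of let-7 microRNAs, was at least 66.6-fold higher in pLB, SOX2 was 7.61-fold higher and MYC 5.79-fold higher. NANOG, a gene with many near-identical pseudogenes, was 2.43-fold lower with an adjusted p of 0.047 from limma, and lost its call with normexp, with the methods' t-test, with a replicate block, and when any of pLUM replicates 1, 2 and 3 or pLB replicate 2 was left out.

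**Figure D4:**
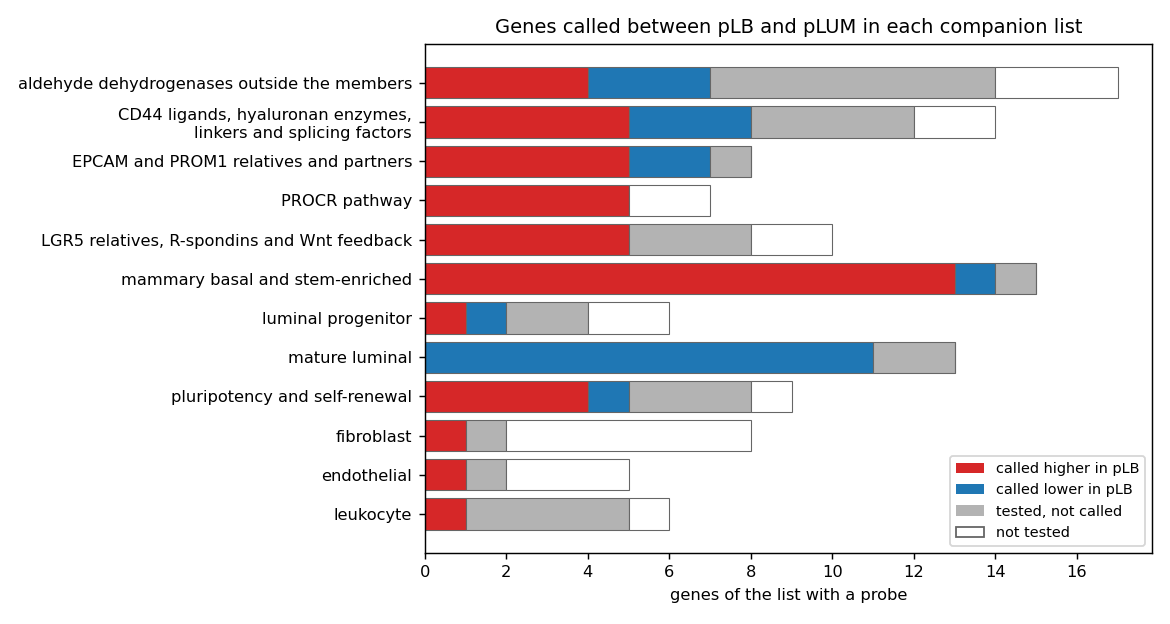
Number of genes (x axis) in each companion list that were called higher in pLB (red), called lower in pLB (blue), tested but not called (grey) or not tested (white). The basal list has 13 of 15 genes higher, the mature luminal list 11 of 13 lower, and the PROCR pathway 5 of 7 higher with the other two not tested.

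Promoter sequence is shown for the called members PROCR, ALDH1A3 and ALDH1A1, which were higher in pLB together and for which RefSeq lists a single start. Each run is the 250 bases before the start in GRCh38.p14, from RefSeq, written in the direction of transcription. Capitals mark matches on either strand to 3 motifs: GGGCGG (a GC box), CACCTG (an E-box of the kind bound by SNAI2) and TGANTCA (an AP-1 site).
PROCR, chr20:35171822-35172071, plus strand: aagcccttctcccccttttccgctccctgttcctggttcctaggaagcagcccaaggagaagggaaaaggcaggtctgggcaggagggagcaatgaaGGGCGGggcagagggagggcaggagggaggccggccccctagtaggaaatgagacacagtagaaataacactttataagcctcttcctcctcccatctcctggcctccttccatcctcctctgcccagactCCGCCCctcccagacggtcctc
ALDH1A3, chr15:100879581-100879830, plus strand: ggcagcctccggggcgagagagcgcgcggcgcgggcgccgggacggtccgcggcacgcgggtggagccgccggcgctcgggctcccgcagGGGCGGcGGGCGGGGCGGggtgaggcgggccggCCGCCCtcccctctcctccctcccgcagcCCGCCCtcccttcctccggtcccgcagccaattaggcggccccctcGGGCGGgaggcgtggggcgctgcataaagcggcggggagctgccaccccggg
ALDH1A1, chr9:72953054-72953303, minus strand: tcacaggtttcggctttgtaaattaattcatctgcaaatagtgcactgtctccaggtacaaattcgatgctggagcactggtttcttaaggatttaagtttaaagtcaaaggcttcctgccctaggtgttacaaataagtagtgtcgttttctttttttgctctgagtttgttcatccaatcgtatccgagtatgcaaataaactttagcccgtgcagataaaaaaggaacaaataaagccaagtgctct

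The 3 windows had little in common. ALDH1A3 was 82.4% G and C with 6 GC box matches, of which a pair overlaps by a base, PROCR was 60% with 2, and ALDH1A1 was 38.4% with none. No match to CACCTG or TGANTCA was found in any of the 3. Of 35116 windows of the same length in the table, 42.6% held GGGCGG, 17.5% held CACCTG and 6.57% held TGANTCA. RefSeq entries of this kind were found for 7 members. EPCAM, THY1 and LGR5 had none.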

How the data were processed

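RNA of FACS-sorted cells, from 3 replicates of pLUM (72 h in 1 nM E) and 3 of pLB (under EWD), was labelled with Cy3 and hybridized to 1-colour Agilent arrays. The authors deposited Agilent Feature Extraction 10.10.1.1 output, as a linear intensity per spot corrected for background within its array and not normalized between arrays, with flags for outliers and signals well above background. The submitters' processing notes name Partek.

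From the deposited intensity, log2 values were computed and the 75th percentile of all gene spots was subtracted on each array. Repeated spots were averaged per probe after removal of control and outlier-flagged spots. Lines were compared with limma 3.58.1 (lmFit and eBayes) in R 4.3.3, without pairing replicate numbers. The fit was tested on simulated data. Between 21285 and 22775 probes per array were well above background. No gene spot was saturated. The number of arrays limits the precision. Names were updated through transcript accessions in RefSeq GRCh38.p14 where these matched. By accession or by the gene name in the files, 27978 of 34127 probes were matched to RefSeq. A gene of a list was represented by its brightest tested probe.

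Members and lists were chosen with earlier results of these data known. Named genes are the members, up to 3 called genes per list and direction with the largest change, and ESRP1, ESRP2, KRT5, ITGA6, CLDN3, ESR1, PGR and GATA3. LGR6, KRT8, RSPO3, COL1A1, PTPRC and genes named as not tested or not detected were chosen after their values were seen. Some results, among them a gene of this rule and a probe sequence, are not reported here. Alternatives were other background corrections, scalings, filters, tests and blocks, and leaving out each array.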

Additional observations from a re-analysis of the deposited data

How the results depend on the processing

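CD24 was called lower under all 18 alternatives, and PROCR and THY1 were called higher under each that gave them a value. With normexp background correction 3 member probes were called higher in place of 5, since ALDH1A3 fell under 2-fold and the ALDH1A1 difference turned to -0.067. Where detection on all 6 arrays was required, 3 were called higher, because THY1 and ALDH1A1 were then not tested, and 40 genes of the companion lists were called in place of 67. Leaving out each array in turn gave 4 to 5 member probes called higher, 1 called lower, 65 to 69 list genes called and a CD44 minus CD24 shift of 1.96 to 2.28. CD44 was called only when no fold threshold was set, and its difference ran from 0.40 to 0.81 over the alternatives. Spike-in scaling moved the median difference of all tested probes from -0.0079 to 0.19, normexp to -0.26 and the slide block to -0.11. Replicate numbers did not pair the arrays, as deviations of same-numbered arrays from their line means correlated at -0.27, -0.09 and -0.22. A replicate block gave 5 member probes called higher, 1 called lower and 66 list genes called. Signal over background limits ALDH1A1, PROM1, ABCG2 and LGR5.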
